A study of Homo sapiens with 8 samples.

Results

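Oxidative phosphorylation genes were read from 8 two-colour Agilent arrays of human cancer cell lines, with nuclear genes set against genes of the mitochondrial genome. The members were the genes named on the arrays as NDUF, SDHA to SDHD, UQCR, CYC1, COX followed by a digit, or ATP5, and those with a probe on the mitochondrial chromosome. They came to 120 of 43317 gene names, on 163 of 58201 probes. Of the 120, 109 were nuclear and 11 were mitochondrial. The nuclear members held 100 subunits, isoforms and assembly factors, and 9 pseudogenes, antisense transcripts or other genes that share the letters. A total of 111 members were detected on all 8 arrays and 6 on none. The undetected members were COX18, COX4I2, COX7A1, NDUFA4L2, NDUFAF4P1 and UQCRBP1. COX4I2 and NDUFA4L2, isoforms known from low oxygen, thus gave no level in either line.

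On each array, the Cy3 channel held RNA of untransfected mock cells, and the Cy5 channel held RNA of cells of the same line given 1 mature miRNA with a lipid reagent. HCT116, a colon cancer line, received miR-139-5p, then miR-139-3p, then miR-143-5p, then miR-143-3p. PANC-1, a pancreatic cancer line, received miR-30c-5p, then miR-30c-2-3p, then miR-30a-5p, then miR-30a-3p. Each miRNA was on 1 array with no dye swap and no control miRNA, so transfection itself, the dye and the miRNA cannot be told apart. The study searched the miR-139-3p array for genes that this miRNA lowers. No log2 ratio below has an error across replicates or a test. Values listed for 8 arrays are in the order of the miRNAs above.

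Oxidative phosphorylation is the last stage of cellular respiration. Complexes I to IV of the inner mitochondrial membrane pass electrons to oxygen and pump protons, and complex V, the ATP synthase, uses the proton gradient to make ATP. Complexes I, III, IV and V mix subunits of both genomes, while complex II is wholly nuclear. The mitochondrial genome is transcribed as long RNAs from both strands and cut into mRNAs, and ND6 is its only mRNA of the light strand. miRNAs pair through their seed, bases 2 to 8 from the 5′ end, with mRNAs, which are then commonly destabilised.

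The 8 mature miRNAs, as RefSeq records them, are shown because their seeds set which probe letters were searched for below. Capitals mark the seed, and miR-30c-5p and miR-30a-5p shared theirs (GUAAACA).
hsa-miR-139-5p: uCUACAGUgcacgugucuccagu
hsa-miR-139-3p: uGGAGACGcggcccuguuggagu
hsa-miR-143-5p: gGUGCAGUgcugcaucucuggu
hsa-miR-143-3p: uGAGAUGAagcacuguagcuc
hsa-miR-30c-5p: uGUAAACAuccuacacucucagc
hsa-miR-30c-2-3p: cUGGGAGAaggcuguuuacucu
hsa-miR-30a-5p: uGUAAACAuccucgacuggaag
hsa-miR-30a-3p: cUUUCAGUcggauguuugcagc

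Between 20106 and 22063 genes were detected per array, meaning well above background in at least 1 channel, and their median log2 ratio lay between 0.00 and 0.02. A log2 ratio of 1 is 2-fold. Genes whose probe held the heptamer complementary to bases 2 to 8, or to bases 2 to 7 followed by A, had a lower median than the other genes on 7 arrays, by -0.02 to -0.09. On the miR-143-3p-labelled array their median was higher by 0.02, a difference about as large as the -0.02 on the miR-139-3p array. These differences have no error beside them, and a probe covers only part of an mRNA. The search therefore cannot decide whether any array holds the miRNA of its label. All arrays are named below by their labels, and the longer name of the miR-143-3p-labelled array carries no further meaning. In mock HCT116 cells EPCAM and CDH1 were 4.31 and 2.92 higher than in mock PANC-1 cells on the log2 scale, and VIM was 8.64 higher in PANC-1. CDH17, FN1, PECAM1 and COL3A1 were not well above background in any mock channel. The leukocyte marker PTPRC was above background in all 4 mock channels of each line, at a low mean level of 5.92 in both. Of the intestinal markers, CDX1 and CDX2 were above background in all 4 HCT116 mock channels, KRT20 in 2 and LGALS4 in 0. In PANC-1, CDX1, CDX2 and LGALS4 were above background in all 4 mock channels and KRT20 in 0. CDX2 was 1.21 higher in HCT116, and CDX1 differed by -0.07.

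The genes of the mitochondrial genome stood clearly above mock on 2 of the 8 arrays. Their median log2 ratio was 1.08 with miR-139-3p and 0.90 on the miR-143-3p-labelled array, against 0.01 for all detected genes on each. On the miR-143-5p array it was 0.39, and on the other 5 arrays it lay between 0.01 and 0.17. On the miR-139-3p array 6 of the 11 genes were at least 2-fold higher, where 2.11% of all detected genes were. On the miR-143-3p-labelled array 5 were, against 0.517%, and on the miR-143-5p array 1 was, against 0.356%. None of the 11 was 2-fold higher on the other 5 arrays, and none was 2-fold lower on any array. With median centring in place of loess, the genes 2-fold higher came to 5 on the miR-143-5p array and 4 on the miR-30a-3p array. They came to 1 each on the miR-30c-5p and miR-30c-2-3p arrays. The share of all genes at that setting is not given here. The median of all detected genes on the miR-30a-3p array was then 0.30. At a lesser distance of 0.5, 10 of 11 were higher on the miR-139-3p array and 10 on the miR-143-3p-labelled array, against 9.76% and 4.7% of all detected genes. The miR-143-5p array had 5 such genes (background 4.12%), the miR-30c-2-3p array 2 (9.61%), the miR-30a-3p array 1 (5.17%) and the others 0.

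**Figure D1:**
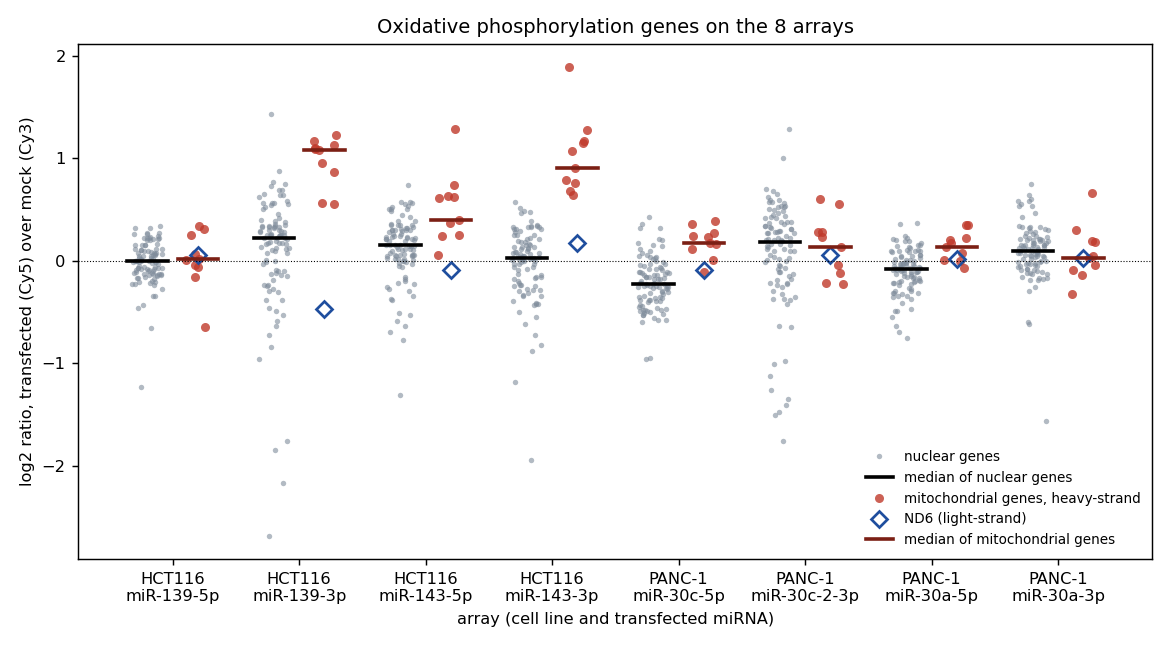
Log2 ratio of transfected over mock cells (vertical axis) on each array for the 100 nuclear members detected on all arrays (grey) and the 11 mitochondrial genes (red, with ND6 as a blue diamond). Bars are medians. The red points stand above most grey points on the miR-139-3p array and on the miR-143-3p-labelled array, and ND6 lies apart from them.

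COX2, a core subunit of complex IV, read 0.07, 1.23, 0.74, 1.28, 0.27, 0.60, 0.35 and 0.19. ND4L, a complex I subunit, read -0.16, 1.08, 0.61, 1.15, 0.11, -0.22, 0.07 and -0.09. Both were high on the same pair of HCT116 arrays and intermediate on the miR-143-5p array. ND2, another complex I subunit, read 0.25, 1.12, 0.63, 1.07, 0.23, 0.13, 0.22 and 0.05. ND3 read 0.31, 0.96, 0.62, 1.17, 0.24, 0.23, 0.21 and 0.03, so these complex I genes had like profiles.

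ATP6, the membrane subunit of complex V next to its rotor, read -0.06, 1.17, 0.06, 0.67, 0.16, 0.28, 0.17 and 0.18. CYTB, the mitochondrial subunit of complex III, read 0.01, 1.09, 0.25, 0.64, 0.17, 0.28, 0.13 and 0.30. For both, the miR-139-3p array was the highest, whereas COX2, ND3 and ND4L were highest on the miR-143-3p-labelled array. ND1 read 0.34, 1.104, 0.24, 0.76, 0.36, 0.55, 0.35 and -0.04. ATP8 and ND5 were the least raised of the heavy-strand mRNAs on the miR-139-3p array, at 0.55 and 0.56. On the miR-143-3p-labelled array they read 0.78 and 0.90, and on the PANC-1 arrays between -0.32 and 0.01.

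ND6, the light-strand mRNA, did not share this profile. It read 0.06, -0.47, -0.10, 0.18, -0.09, 0.05, 0.02 and 0.02, the lowest of the 11 on the miR-139-3p, miR-143-5p and miR-143-3p labelled arrays. On the miR-139-3p array it lay 1.56 below the median of the 10 other genes. The ND6 probe was the dimmest of the 11, with a mean log2 intensity of 7.65 against 11.88 for ND5, the next dimmest. Its mock levels were 9.83 and 9.24 for miR-139, and 7.27 and 7.23 for miR-143. In PANC-1 they were 6.72 to 6.98. The undetected members had mean intensities of 5.73 to 5.81. Whether the low signal of ND6 held its ratios near mock was not tested. COX1 departed in another way, at -0.65, 0.86, 1.29, 1.89, 0.38, -0.22, 0.00 and 0.66, the highest value of the 11 on the miR-143-3p-labelled array and the lowest on the miR-139-5p array.

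The probe sequences of 4 mitochondrial genes follow. COX2 is shown as a typical heavy-strand mRNA, ND5 and ND6 as neighbours read from opposite strands, and COX1 for its position. Coordinates are those of the files, on hg19. The COX2 probe lay at chrM:7987-8046 (+), the ND5 probe at chrM:13887-13946 (+) and the ND6 probe at chrM:14449-14508 (-).
COX2: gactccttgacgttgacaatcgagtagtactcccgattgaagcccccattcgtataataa
ND5: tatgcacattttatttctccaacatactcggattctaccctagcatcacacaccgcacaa
ND6: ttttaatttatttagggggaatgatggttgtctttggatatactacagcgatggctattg
COX1: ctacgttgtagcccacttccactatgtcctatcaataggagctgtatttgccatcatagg
The files describe the COX1 probe as mitochondrially encoded but place it at chr1:567567-567626 (+), where chromosome 1 is known to carry a copy of mitochondrial sequence. RNA of the 2 places cannot be told apart by this probe. Without COX1 the mitochondrial medians were 1.08 and 0.84 on the miR-139-3p and miR-143-3p labelled arrays. No mitochondrial probe held a seed heptamer of the miRNA on any array. Genes named ND4, COX3, RNR1 and RNR2 were not analysed here. The named gene LOC101929612, which the files describe as mitochondrial COX3 at a position on chromosome 1, is no member and read 1.12 on the miR-139-3p array and 0.66 on the miR-143-3p-labelled array.

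**Figure D2:**
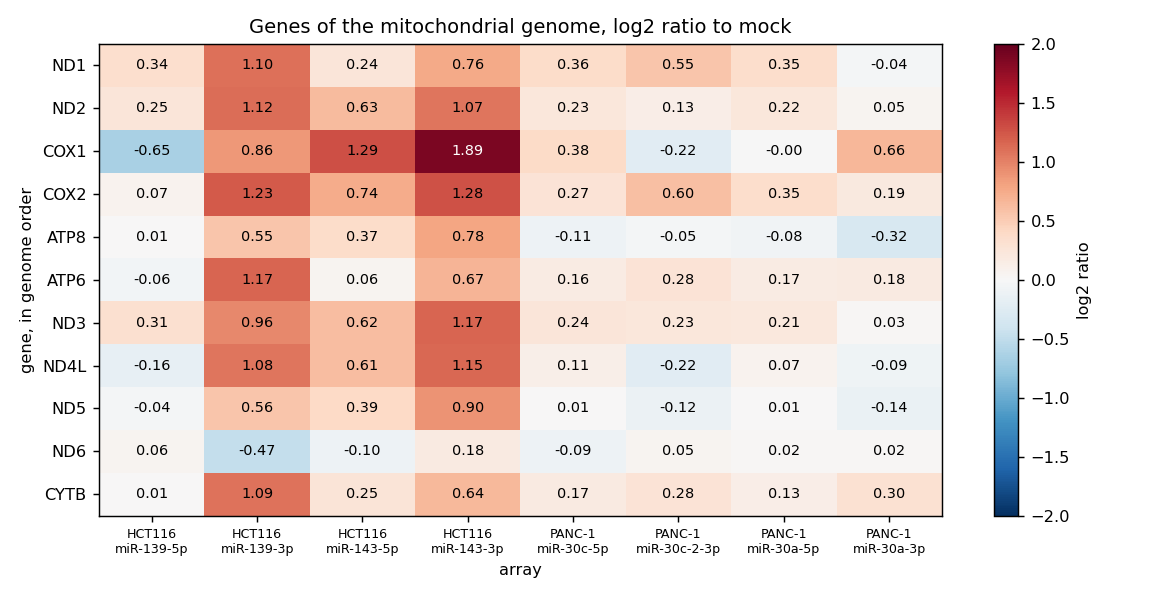
Log2 ratio to mock (colour and printed value) of the 11 genes of the mitochondrial genome, in genome order from top to bottom, on the 8 arrays. The columns of miR-139-3p and of the miR-143-3p-labelled array are red in every row except ND6, which reads -0.47 and 0.18.

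The mock channels give a rough scale for these values. The 2 mock channels of a precursor differed by a median of at most 0.07 over the mitochondrial genes, and by at most 0.26 for any of them on the miR-143, miR-30c and miR-30a pairs. On the miR-139 pair single genes differed by more: ND5 read 9.97 and 10.96 in mock Cy3 on the log2 scale, ND1 10.96 and 11.75, and ND6 9.83 and 9.24. The ND6 distance of -0.47 on the miR-139-3p array is smaller in size than the 0.59 between its mock channels, and so is the ND5 value of 0.56 there against 0.99. The mock gaps are between 2 arrays and the ratios within 1 array, so the gaps are not the error of the ratios. The medians of 1.08 and 0.01 on the miR-139-3p and miR-139-5p arrays lay further apart than the mock medians did. Mock HCT116 cells of the miR-139 and miR-143 arrays also differed, with 2 of 11 mitochondrial genes at least 2-fold apart (ND6 higher and ND5 lower in the miR-139 mock), against 0.87% of all detected genes and 0 of 102 nuclear members. The labels do not say whether mock channels shared a culture.

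Heavy-strand mitochondrial probes were among the brightest, so equally bright genes were set beside them. The 782 other genes at least as bright had medians of 0.05 with miR-139-3p and 0.07 on the miR-143-3p-labelled array. The 78 cytosolic ribosomal protein genes detected there had medians of 0.09 and 0.12. With median centring in place of loess the median of these bright genes shifted by 0.04 to 0.91 depending on the array, that of all genes by 0.02 to 0.28, and the mitochondrial medians with them, so the low values on the PANC-1 arrays have no settled size. On the miR-139-3p array the mitochondrial median was 0.80 to 1.13 over all processing alternatives, and on the miR-143-3p-labelled array 0.84 to 1.02.

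Nuclear members stood nearer to mock than the mitochondrial genes on these 2 arrays. Their median log2 ratio was -0.01, 0.22, 0.15, 0.03, -0.22, 0.18, -0.07 and 0.09. It was negative with miR-139-5p, miR-30a-5p and miR-30c-5p, and turned positive on all 3 of these arrays with median centring (0.32, 0.35 and 0.38). The mitochondrial median exceeded the nuclear one by 0.85 on the miR-139-3p array and by 0.87 on the miR-143-3p-labelled array, where 10 of 11 mitochondrial genes were above the upper quartile of the nuclear genes. The difference was 0.40 on the miR-30c-5p array, 0.25 on the miR-143-5p array and 0.20 on the miR-30a-5p array. It was 0.02, -0.05 and -0.07 on the miR-139-5p, miR-30c-2-3p and miR-30a-3p arrays. As a scale for these numbers, the spread (SD) of this difference between mock samples of 1 line was 0.12 (n = 2 mock samples in each line).

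**Figure D3:**
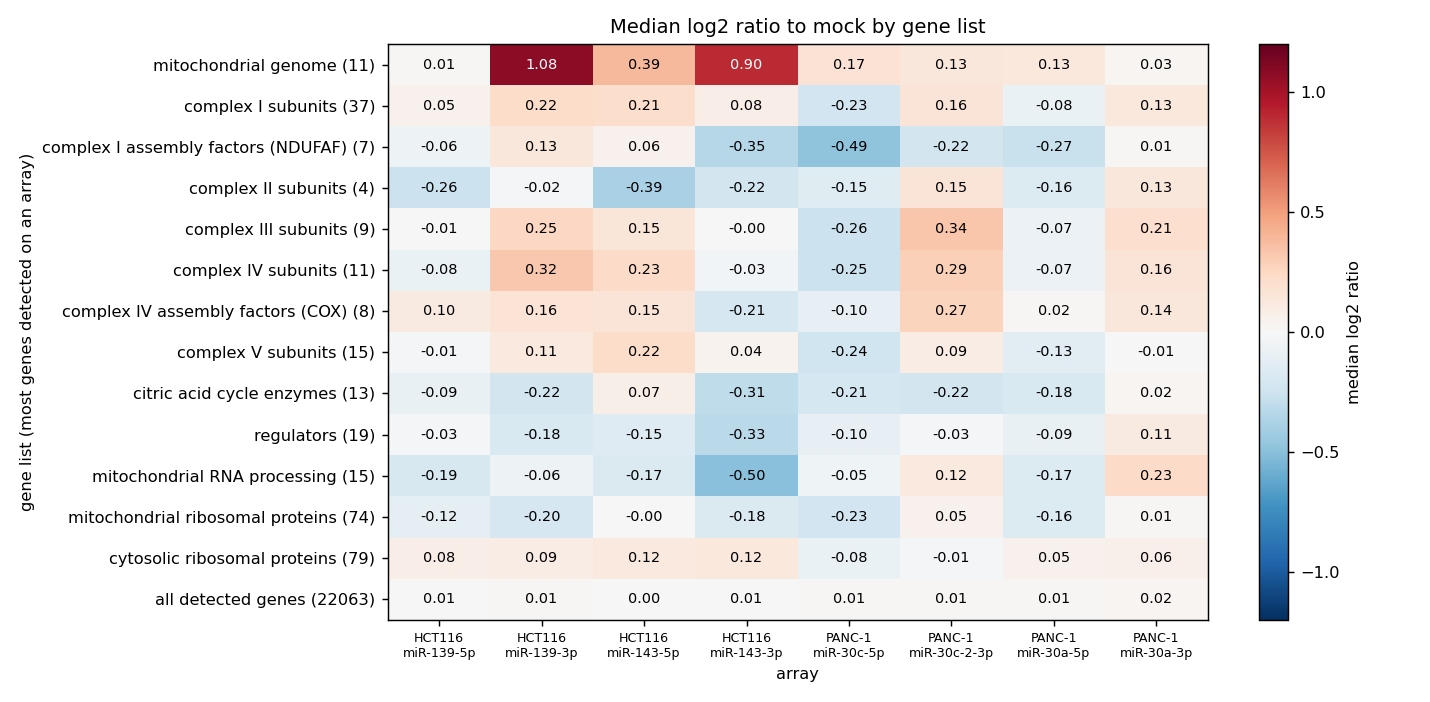
Median log2 ratio to mock (colour and printed value) of each list on the 8 arrays, with the number of genes in brackets. The mitochondrial genome reads 1.08 and 0.90 on 2 arrays, where subunits of complexes I, III, IV and V read between -0.03 and 0.32.

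At the rule of 2-fold, few nuclear members stood apart after loess. With median centring the count rose on the miR-30a-3p array, where the other bright genes rose too. On the miR-139-5p array 1 of 100 detected was lower (0.201% of all genes) and 0 higher (0.0587%). With miR-139-3p 4 of 102 were lower (2.82%) and 1 higher (2.11%). On the miR-143-5p array 1 of 102 was lower (1.0%) and 0 higher (0.356%). On the miR-143-3p-labelled array 2 of 102 were lower (0.925%) and 0 higher (0.517%). These counts, at most 4 on a side, are too small to set apart from the shares of all genes.

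In PANC-1, the miR-30c-5p array had 0 of 101 lower (0.445%) and 0 higher (0.747%). The miR-30a-5p array likewise had 0 of 101 lower (0.263%) and 0 higher (0.306%). On the miR-30c-2-3p array 8 of 102 were lower (4.14%) and 2 higher (1.71%). The miR-30a-3p array had 1 of 102 lower (1.1%) and 0 higher (0.372%). With median centring the nuclear members came to 0 lower and 33 higher on the miR-30a-3p array, and to 6 lower and 5 higher on the miR-30c-2-3p array. The share of all genes under that setting is not given here. The other bright genes then had medians of 0.86 and 0.37 on these 2 arrays. These counts are therefore no result about the members. At a distance of 0.5, the miR-30c-5p array had 11 nuclear members lower (3.73%) and 0 higher (4.66%). With miR-139-3p 10 of 102 were lower (10.2%) and 19 higher (9.76%). The miR-139-5p array had 2 lower (1.64%) and 0 higher (1.29%). The miR-143-5p array had 7 lower (5.75%) and 9 higher (4.12%), and the miR-143-3p-labelled array 7 lower (6.62%) and 2 higher (4.7%). The miR-30c-2-3p array had 11 lower (12.2%) and 16 higher (9.61%). The miR-30a-5p array had 4 lower (2.55%) and 0 higher (2.79%), and the miR-30a-3p array 3 lower (4.98%) and 8 higher (5.17%).

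Complex I, the NADH dehydrogenase, had 37 nuclear subunits on the arrays. Below mock were 15, 9, 8, 12, 33, 11, 27 and 9 of them, so the 2 arrays of the miR-30 5p strands, which share a seed, had the most after loess. Of all detected genes 46.2% and 46.1% were below mock on these 2 arrays, and 44.2% to 48.9% on any array. Complex I medians there were -0.23 and -0.08, against 0.05 to 0.22 on the other 6 arrays. With median centring those 2 turned to 0.38 and 0.35. The tilt was not particular to complex I. On the miR-30c-5p array 8 of 9 complex III, 10 of 11 complex IV and 13 of 15 complex V subunits were below mock. So were 61 of 74 mitochondrial and 61 of 79 cytosolic ribosomal protein genes. On the miR-30a-5p array these counts were 6, 8, 11, 59 and 30. NDUFA12, an accessory subunit, was the lowest nuclear gene on both arrays, at -0.96 and -0.76. Its other 6 values were 0.17, 0.54, 0.34 and 0.28 in HCT116, and 0.42 and 0.13 on the 3p arrays of PANC-1, so it was below mock on no other array. Its second probe read -0.94 and -0.73. NDUFB10, a membrane-arm subunit, read -0.95 and -0.63 on these arrays and -1.12 on the miR-30c-2-3p array (-0.82 with median centring).

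Other complex I subunits were 2-fold lower on the miR-30c-2-3p array. NDUFS7, which holds an iron-sulphur cluster, read 0.22, 0.75, 0.48, 0.05, -0.53, -1.76, -0.20 and 0.54, its value there being the lowest of any nuclear member on that array. NDUFA5 read -1.26 there, against -0.10 to 0.60 elsewhere. The core subunits NDUFS1 and NDUFV1 ranged from -0.27 to 0.62 and from -0.33 to 0.21. NDUFS8 was among the 3 highest on the miR-139-3p array (0.88), as NDUFB11 was on the miR-139-5p array (0.34), where NDUFB5 was second lowest (-0.66).

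The 7 complex I assembly factors detected had their lowest median, -0.49, on the miR-30c-5p array, which was 0.02 with median centring. NDUFAF3 read 0.22, 0.13, -1.31, -0.43, -0.60, -1.50, -0.69 and -0.25, the lowest nuclear gene on the miR-143-5p array and second lowest on the miR-30c-2-3p array. With median centring it read -0.96 and -1.16 on these 2 arrays, so the first was no longer 2-fold. NDUFAF1 went the other way on the miR-30c-2-3p array, at 1.29, the highest nuclear value there, and ranged from -0.49 to 0.44 on the other arrays. NDUFAF4 read -0.88 on the miR-143-3p-labelled array, and NDUFAF6 -0.60 on the miR-30a-3p array. Others among the 3 highest in complex I were NDUFB6 and NDUFB3 on the miR-143-5p array (both 0.57), and NDUFV3 and NDUFB2 on miR-30 5p arrays (0.43 at most). The second NDUFV3 probe read 0.04 on the miR-30c-5p array, where the first read 0.43. NDUFA5 was also among them on the miR-30a-3p array, where NDUFAB1 was second lowest (-0.62).

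Complex II, succinate dehydrogenase, also works in the citric acid cycle and has no mitochondrially encoded part. Its membrane anchors, SDHC and SDHD, gave the values furthest from mock in the complex. SDHD read -0.44, -0.27, -0.51, -1.94, -0.38, -0.18, -0.31 and 0.64, with all 3 of its probes low on the miR-143-3p-labelled array (-1.94, -1.54 and -1.36). SDHC read -0.34, -2.17, 0.06, -0.03, -0.16, 0.49, -0.06 and -0.29. Its 4 probes disagreed on the miR-139-3p array, at -2.17, -0.84, -0.35 and 0.38, and the median over its probes was -0.60, so the SDHC value rests on 1 probe. SDHA, the flavoprotein, ranged from -0.26 to 0.41 and SDHB, the iron-sulphur subunit, from -0.59 to 0.31.

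Of the 9 complex III genes, UQCR11, a small accessory subunit, read 0.01, 0.33, 0.14, 0.13, -0.25, 0.34, -0.07 and -1.56. It was 2-fold lower on the miR-30a-3p array alone, and there lowest of all nuclear members, but with median centring it read -0.71 there, short of 2-fold. UQCRC1, a core protein, read -0.98 on the miR-30c-2-3p array and was the highest nuclear gene on the miR-143-3p-labelled array, at 0.57. UQCRC2 ranged from -0.26 to 0.32, UQCRFS1, the Rieske protein, from -0.46 to 0.25 and CYC1, cytochrome c1, from -0.49 to 0.21.

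Complex IV, cytochrome c oxidase, held the lowest value of all members. COX8A, a small subunit, read -0.08, -2.68, 0.23, 0.04, -0.25, -0.30, -0.02 and 0.04. Its second probe read -2.72 on the miR-139-3p array, and from -0.19 to 0.45 elsewhere. COX7B was lower on the miR-139-5p array (-1.23, and -0.90 with median centring), and lay between -0.36 and 0.53 on the others. NDUFA4, now named COXFA4 as a complex IV subunit, read -1.18 on the miR-143-3p-labelled array against -0.02 to 0.56 elsewhere. COX6A1 read -0.77 on the miR-143-5p array. COX4I1 ranged from -0.11 to 0.44, COX5A from -0.73 to 0.27 and COX6C from -0.16 to 0.52. On the miR-139-3p array the other 10 complex IV subunits lay between -0.24 and 0.73, while the mitochondrial COX2 read 1.23.

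Assembly factors of complex IV held 2 of the 3 nuclear values at least 2-fold higher after loess. COX19, a copper-handling factor, read 0.21, 1.43, -0.06, 0.10, 0.32, 0.31, 0.17 and 0.21, the highest nuclear value on the miR-139-3p and any array. COX16 was 2-fold higher on the miR-30c-2-3p array (1.01) and above mock on all 8. COX17, the copper chaperone, was highest on the miR-143-5p array (0.74), where it did not reach 2-fold, and read 0.70 on the miR-30c-2-3p array. COX14 was highest on the miR-30a-3p array (0.75). The haem-synthesis factors COX10 and COX15 ranged from -0.24 to 0.21 and from -0.64 to 0.11. COX7A2L, which joins complexes into supercomplexes, read 0.09, -0.01, 0.11, 0.07, 0.32, 0.57, 0.22 and 0.55, and was higher on each PANC-1 array than on each HCT116 array. COX6B2, a testis isoform, was among the 3 highest on the miR-143-3p-labelled array (0.48), but its second probe read -0.03 there.

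Complex V showed unequal values among 3 genes for the same protein. ATP5G1, ATP5G2 and ATP5G3 (now ATP5MC1, ATP5MC2 and ATP5MC3) encode precursors of 1 mature subunit c, which forms the rotor ring. On the miR-139-3p array ATP5G1 read -1.84, ATP5G2 -1.76 and ATP5G3 -0.09. On the miR-30c-2-3p array they read -1.47, -0.64 and -0.39. On the other 6 arrays ATP5G1 and ATP5G2 lay between -0.22 and 0.51, and ATP5G3 between -0.55 and 0.04. ATP6, the mitochondrial subunit that the ring turns against, read 1.17 on the miR-139-3p array.

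Of the catalytic head, ATP5A1 (ATP5F1A) ranged from -0.20 to 0.16. ATP5B (ATP5F1B) ranged from -0.69 to -0.01, with its lowest value on the miR-143-5p array. ATP5D (ATP5F1D), in the central stalk, read -1.35 on the miR-30c-2-3p array, and from -0.39 to 0.55 elsewhere. ATP5E (ATP5F1E) was among the 3 highest on both miR-139 arrays, at 0.32 and 0.76, but its second probe read 0.02 and 0.17 there. ATP5S (DMAC2L), which shares only the letters of this complex, read -1.004 on the miR-30c-2-3p array (-0.86 with median centring) and was the eighth of its 2-fold lower members.

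**Figure D4:**
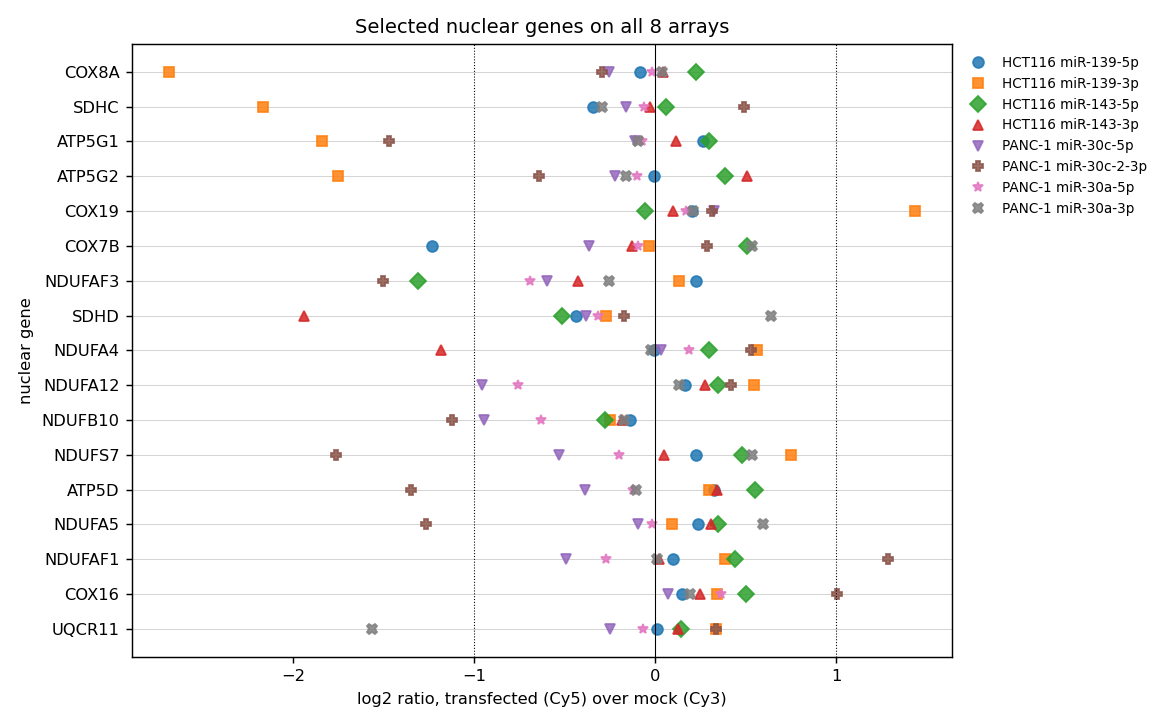
Log2 ratio to mock (horizontal axis, dotted lines at 2-fold) of 17 nuclear members, picked for values far from mock, on all 8 arrays, 1 symbol per array. After loess, most genes stand at least 2-fold from mock on 1 array, such as COX8A at -2.68 with miR-139-3p and UQCR11 at -1.56 with miR-30a-3p. ATP5G1 does so with miR-139-3p and miR-30c-2-3p, and NDUFAF3 with miR-143-5p and miR-30c-2-3p. Elsewhere values are short of 2-fold but not all near 0, such as NDUFB10 at -0.95 with miR-30c-5p. NDUFA12 is low on both miR-30 5p arrays.

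Several of the lowest nuclear members had a seed heptamer in a probe. The stretches are shown so that these letters can be read beside the values. Whether the matches bear on the values was not tested. Capitals mark the heptamer complementary to bases 2 to 8, or to bases 2 to 7 followed by A. Stretches run in the sense of the mRNA, 30 bases each, and probe positions are on hg19.
COX8A, miR-139-3p, chr11:63743901-63743960 (+): gacctcttgatGTCTCCAtggtgacctcct
ATP5G2, miR-139-3p, chr12:54059077-54059136 (-): gccatgtgaaggagcCGTCTCCacctccca
NDUFB11, miR-139-3p, chrX:47002046-47002105 (-): ttcttctttggCGTCTCCatcatcctggtc
NDUFAF3, miR-143-5p, chr3:49060618-49060677 (+): tgacctgctgACTGCACtctgccaggcttc
NDUFA12, second probe, miR-30c-5p and miR-30a-5p, chr12:95365110-95365169 (-): tactcttttacTGTTTACcattcactataa
UQCR11, miR-30a-3p, chr19:1598094-1598153 (-): agcttcaggcttcttatgtttCTGAAAAca
COX8A, NDUFAF3 and UQCR11 were the lowest of 94 ranked nuclear members on their arrays, and ATP5G2 the fourth lowest. In ATP5G2 and NDUFB11 an A follows the capitals, so both heptamers were present. NDUFB11 is shown as the opposite case, since it read 0.24. The other matches were COX6B2 with miR-139-3p (0.04), NDUFV2-AS1 with miR-143-5p (-0.03), NDUFS5 with the miR-30 5p strands (-0.48 and -0.30), and NDUFA12 and NDUFC2 with miR-30a-3p (0.13 and 0.06).

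The heptamers of miR-139-3p were in 4 of 163 member probes and in 0.634% of all 58201 probes. Those of miR-143-5p were in 2 (0.83% of all probes), those of the miR-30 5p strands in 2 (0.768%) and those of miR-30a-3p in 3 (1.79%). No member probe held those of miR-139-5p (0.591%), miR-143-3p (1.07%) or miR-30c-2-3p (0.93%). SDHD, SDHC, ATP5G1, COX7B, NDUFA4 and NDUFS7 were thus low without a heptamer in their probes. A probe covers 60 bases of an mRNA, so this search says nothing about the rest of it, and a match is letters in a probe.

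Genes that act on the mitochondrial genome gave few values at least 2-fold from mock. Of the 19 detected regulators 14, 14, 13, 17, 12, 10, 11 and 8 were below mock, against 44.2% to 48.9% of all detected genes. Their medians were -0.03, -0.18, -0.15, -0.33, -0.10, -0.03, -0.09 and 0.11. With median centring these medians ranged from -0.27 to 0.70. PPARGC1A, the coactivator of mitochondrial biogenesis, was not detected on any array. NRF1, a factor of nuclear respiratory genes, ranged from -0.24 to 0.07. TFAM, which packages mitochondrial DNA and starts its transcription, read -0.04, -0.61, 0.36, -0.51, 0.02, 0.42, -0.07 and -0.88. The mitochondrial RNA polymerase POLRMT read 0.13, -0.11, -0.15, 0.36, 0.24, -1.28, 0.19 and 0.22. TFB2M, its initiation partner, was lowest on the miR-139-5p array (-0.87). MTERF3, a repressor of mitochondrial transcription, read -1.14 on the miR-139-3p array and -0.41 on the miR-143-3p-labelled array. Of the 19 detected regulators 1 was 2-fold lower on the miR-139-3p array (MTERF3), against 2.82% of all detected genes. On the miR-30c-2-3p array 1 was (POLRMT), against 4.14%. On any array 0 were 2-fold higher, against 0.0587% to 2.11% of all detected genes.

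RNA-handling genes had a median of -0.50 on the miR-143-3p-labelled array (-0.24 with the median over the probes of each gene), with 12 of 15 genes below mock against 48.6% of all detected genes, and with miR-139-3p their median was -0.06. LRPPRC, which stabilises mitochondrial mRNAs, read -0.31, 0.15, -0.64, -0.50, -0.05, -0.39, -0.03 and 0.14. Its partner SLIRP read -1.05 on the miR-139-3p array and -0.52 on the miR-143-3p-labelled array. PNPT1, of the RNA-degrading machinery, read -0.28, -0.07, -0.45, -0.55, -0.49, 0.15, -0.50 and -0.19. FASTKD5, which acts on unprocessed mRNA ends, was the 1 gene of the list at least 2-fold higher, at 1.09 on the miR-139-3p array. Of all detected genes 2.11% were 2-fold higher there. ELAC2, which cuts tRNA 3′ ends, read -1.17 on the miR-30c-2-3p array.

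Citric acid cycle enzymes had medians of -0.09, -0.22, 0.07, -0.31, -0.21, -0.22, -0.18 and 0.02. Low medians were thus not particular to the 2 arrays with high mitochondrial mRNAs, those of miR-139-3p and of the miR-143-3p label. CS, citrate synthase, read -0.42, -0.47, -0.15, -1.04, -0.21, -0.44, -0.14 and 0.02. IDH3G was 2-fold lower on the miR-30c-2-3p array, at -1.59. Mitochondrial ribosomal proteins, 74 nuclear genes needed to translate these mRNAs, had medians of -0.20 and -0.18 on those 2 arrays, so no nuclear list here was as far above mock there as the mitochondrial genes.

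Mock cells allowed the only test. Averaging the mock channels of a precursor gave 2 HCT116 and 2 PANC-1 samples, compared with limma over 19505 genes detected in either line, with Benjamini-Hochberg adjustment at 0.05. Of 101 nuclear members tested 53 passed, 18 higher in HCT116 and 35 lower, and of 11 mitochondrial genes 3 passed, all lower in HCT116. Over all genes 43.4% passed, 22.4% higher and 21.0% lower in HCT116. In total 52.5% of the nuclear members passed, and more of them were lower than higher in HCT116, unlike over all genes. Whether this tilt exceeds the background was not tested. Cell line and array slide column cannot be told apart. Leaving out either PANC-1 sample brought the nuclear members to 2 higher and 4 or 6 lower, and the mitochondrial to 0, when 9.06% or 10% of all genes passed. The labels do not name separate cultures, so the p-values measure the spread between these samples, which may be technical.

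COX16 was the member furthest above PANC-1 in HCT116 among those that passed, by 1.22 ± 0.06 on the log2 scale (SE, n = 2 in each line), with mock levels of 10.98 and 11.03 against 9.82 and 9.75 and a limma adjusted p of 0.00205. ATP5A1 was higher by 1.14 ± 0.07 (adjusted p = 0.00307), and COX4I1, NDUFA11 and ATP5F1 (ATP5PB) by 0.70, 0.66 and 0.64. The lowest in HCT116 were ATP5S (-1.18), ATP5L (ATP5MG, -1.14), ATP5L2 (ATP5MGL, -1.098), UQCRFS1 (-0.98) and ND1 (-0.95). The mean mock levels of ATP5L were 13.87 and 15.01. Leaving out a PANC-1 sample ended the call for COX4I1, NDUFA11, ATP5F1, ATP5S and ND1.

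Complex I subunits gave 6 higher and 17 lower in HCT116 of 37, and complex II 0 and 3 of 4. Over all genes 22.4% were higher and 21.0% lower. SDHD differed by -0.82, SDHB by -0.48 and SDHC by -0.32, all past the threshold, while SDHA differed by -0.08 (adjusted p = 0.686, limma). Of 8 complex IV assembly factors 4 were higher and 1 lower, and none of the 7 complex I assembly factors passed with limma, nor had any an unadjusted p under 0.05. Among mitochondrial genes COX2 differed by -0.63 ± 0.08 (SE, limma adjusted p = 0.01) and ND4L by -0.52. ND6 differed most, by 1.59 ± 0.84, and did not pass (adjusted p = 0.206, limma): its HCT116 mock levels were 9.53 and 7.25, and its PANC-1 levels 6.87 and 6.73.

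**Figure D5:**
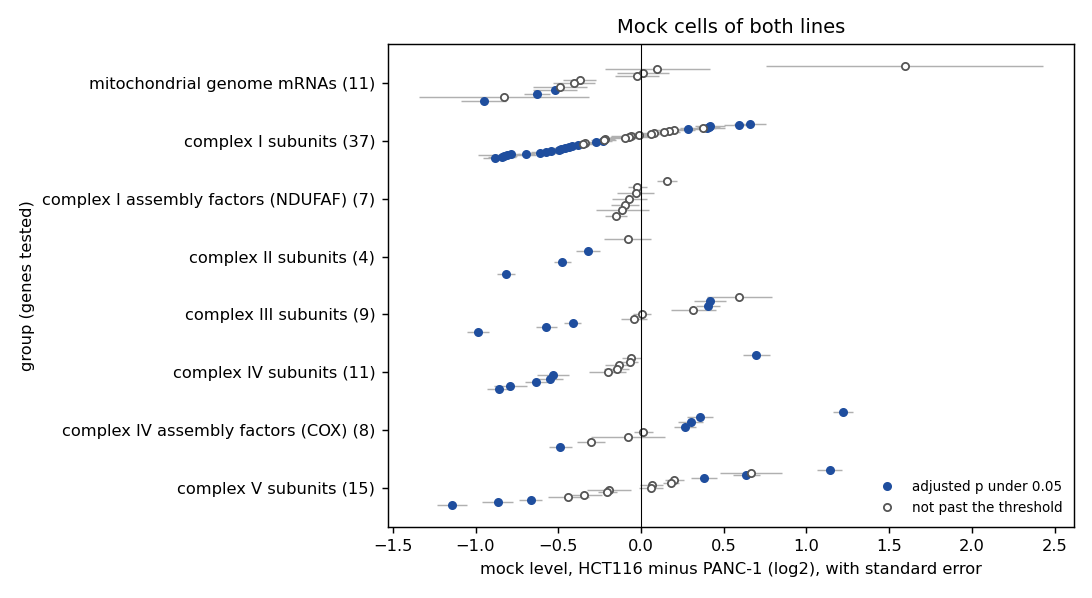
Difference of mock levels, HCT116 minus PANC-1, on the log2 scale (horizontal axis) for members grouped by complex, with standard errors from limma as lines. Filled points passed an adjusted p of 0.05. COX16 is the furthest filled point to the right at 1.22, and ND6, unfilled at 1.59, has the widest error.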

How the data were processed

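Total RNA of both channels was labelled with an Agilent 2-colour kit and read with 60-base probes. Per the file headers, the deposited scanner files give for each spot the mean intensity of Cy3 and Cy5, the median background and calls for outliers and for spots well above background. The deposited log10 ratio of processed Cy5 over Cy3 was used, as log2, only as an alternative. No other aligner, filter or pooling step is given in the sources used here.

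The spot values were then handled with limma 3.58.1 (R 4.3.3), using normexp background correction with an offset of 50, loess within each array, and removal of control and outlier spots (75 to 129 per array). No spot was saturated. Spots of a probe were averaged, and the brightest probe of a gene, by mean signal over all arrays, stood for it. Mock levels were quantile-normalised Cy3 log2 intensities. Python 3.11.15 was used for tables (pandas 2.3.3, numpy 2.4.6) and plots (matplotlib 3.10.9). Symbols are those of the array design, and 22 of 120 members carry another symbol in RefSeq today, given in brackets where such a gene is first described.

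The number of arrays, 1 per miRNA, limits the precision. The rule for named genes took all mitochondrial genes, the 3 lowest and 3 highest nuclear members of each array among those well above background in both channels, a set of subunits of each complex, the 5 most higher and 5 most lower in the mock test, and 8 regulators, RNA-handling and citric acid cycle genes with any other member of those lists at 2-fold. Other genes, such as ATP5G3 or NDUFA5, were named after their values were seen, and some that the rule takes are not reported here. The members and lists were chosen with earlier results of these data known. All 8 samples were grouped by their labels, and 0 columns were left without a sample. Alternatives were no background correction, the scanner log ratio, median centring, no filter on dim probes, the median over probes, Aquantile scaling of the mock channel, and each mock sample left out.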

Additional observations from a re-analysis of the deposited data

How the results depend on the processing

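No paired analysis was possible because each miRNA had 1 array, so there were no replicate arrays to block. The log2 ratio of an array is itself a difference within that array. Of 248 alternative values of medians, differences and counts, 204 kept direction and size, 42 moved and 2 reversed. The cause was not tested. By construction, loess removes a trend of the ratio with brightness and median centring keeps it. With median centring the nuclear median reversed to 0.38 (miR-30c-5p) and 0.35 (miR-30a-5p), and was 0.32, 0.46, 0.068, 0.45 and 0.94 on the miR-139-5p, miR-143-5p, miR-143-3p labelled, miR-30c-2-3p and miR-30a-3p arrays. The mitochondrial median was then 0.41, 0.78 and 1.02 on the first 3 of these and 0.89, 0.53, 0.78 and 0.97 on the PANC-1 arrays in order, and the difference on the miR-30a-5p array was 0.43. Members at least 2-fold lower came to 0 on the miR-139-5p, miR-143-5p and miR-30a-3p arrays, and those higher to 6 on the miR-143-5p, 1 on the miR-30c-5p, 6 on the miR-30c-2-3p and 37 on the miR-30a-3p array. The scanner log ratio gave 0.17, 0.80 and 0.63 for the nuclear median, mitochondrial median and difference on the miR-139-3p array. It gave 4, 3, 1, 4 and 1 members at least 2-fold higher on the miR-139-3p, miR-143-3p labelled, miR-30c-5p, miR-30c-2-3p and miR-30a-3p arrays. Without the filter on dim probes the nuclear median was 0.18, 0.12 and 0.14 on the miR-139-3p, miR-143-5p and miR-30c-2-3p arrays. Without background correction the miR-30c-2-3p array had a nuclear median of 0.13 and 1 member 2-fold higher. Shares of all genes past 2-fold are not given for these alternatives, so these counts of members have no background beside them. COX1, left out after the data were seen, moved no median or difference by more than the spread between mock samples. Leaving out a mock sample gave 2 to 18 nuclear members higher in HCT116 and 4 to 37 lower, and 0 to 1 mitochondrial genes higher and 0 to 5 lower. With 1 sample left in a line, that sample is assumed to vary like the other line. The other alternatives of the mock test gave counts within 1.5 times. Of 2360 single-gene log2 ratios under alternatives 564 moved by more than the spread between mock samples and none that was 2-fold reversed.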
